A study of Rattus norvegicus with 6 samples.

Results

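The genes described here encode parts of the tight junction: the claudins Cldn3, Cldn4, Cldn6 and Cldn7, occludin (Ocln) and the scaffold protein ZO-1 (Tjp1). They were chosen by name, as every probe set whose gene symbol in the platform's annotation is exactly one of these 6. The 6 names were picked with earlier results of these data known. This gave 8 probe sets for 6 genes, among 31042 probe sets tested and 14217 named genes. All 6 genes were found, and no probe set was left out for low signal.

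Tight junctions seal the space between neighbouring epithelial cells at the apical end of their lateral membranes and separate the apical from the basolateral membrane. Claudins are membrane proteins with a pair of extracellular loops that form the strands of the junction and set which ions and solutes pass, and the mixture of claudins differs between epithelia. Occludin is a further membrane protein of the strand, and ZO-1 lies beneath the membrane and ties strand proteins to actin. In the early embryo tight junctions first form in the outer cells that become the trophectoderm, and pluripotent stem cells grown as epithelial colonies also express claudins.

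Rat embryonic stem (ES) cells were compared with flat pluripotent stem (fPS) cells, 3 samples each, all from the Sprague-Dawley strain, each hybridised as total RNA on 1 Affymetrix expression array. The labels describe 1 protocol for both groups: a medium with human LIF, the GSK3 inhibitor CHIR99021 and the MEK inhibitor PD0325901, and upkeep on mouse embryonic fibroblasts stopped in division by mitomycin C, in a serum medium. Cells were picked by hand into Trizol. No treatment, age, passage or clone separates the groups in the labels, and fPS samples too are described as embryonic stem cells in one label field. Whether samples of one kind were separate cultures is not in the labels; the p-values therefore describe the spread among these arrays alone, and that spread may be technical.

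Values are the deposited linear intensities, and changes are differences of log2(intensity + 16), fPS minus ES, a scale that understates the change of dim probe sets. Groups were compared with limma over all 31042 probe sets, and a probe set passed at a Benjamini-Hochberg adjusted p under 0.05. A gene with several probe sets stands in counts by the one with the highest mean intensity. The median intensity of an array lay between 36.2 and 45.3. Of 20 pluripotency gene symbols listed, 10 were measured, meaning that a probe set carries the symbol. Pou5f1, Nanog and Zfp42, the last also listed as Rex1, were among those that were not. Sox2, Klf2 and Klf5 had group means of at least 1992 in both groups, and 0 of the 10 passed. The median log2 change of the 10 was -0.21, with a positive sign in 3. Sox2 had a log2 change of -0.97 (limma adjusted p = 0.181). Pearson's r of log2 values across probe sets lay between 0.932 and 0.972 over the 15 pairs of arrays, with no pair identical. The ratio of 3′ to 5′ β-actin signal was 4.37 on fPS replicate 2 and between 2.06 and 2.70 on the others. For Gapdh the same ratio ran from 0.956 on fPS replicate 2 to 1.01 on fPS replicate 1. The mean log2 value of 8 collagen genes, as a measure of fibroblast RNA, was highest on ES replicate 3 (7.70) and fPS replicate 3 (7.40) and lay between 5.64 and 6.62 on the others.

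Of the 6 tight junction genes, 1 rose in fPS cells, 0 fell and 5 did not pass. Over all named genes 0.872% passed, 0.577% higher and 0.295% lower in fPS cells, and over all probe sets 0.693% passed, 0.399% higher and 0.293% lower. The gene that rose was Cldn4, and Cldn7 had the next largest difference. Because the 6 names were picked with earlier results known, these and later counts of members are descriptions. The median log2 change of the 6 genes was 0.058, beside -0.000235 over all genes. In bulk RNA such as this, fewer cells of a type and less RNA per cell cannot be told apart.

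Cldn4 encodes a claudin of simple epithelia that also serves as a receptor for a bacterial enterotoxin. Its intensity was 208, 459 and 299 on ES replicates 1, 2 and 3, and fPS replicates 1, 2 and 3 had 1303, 1508 and 2034. Every fPS array thus lay above every ES array, and the lowest fPS value was well above the highest ES value. The means were 322 ± 127 (SD, n = 3) and 1615 ± 377 (SD, n = 3), a log2 change of 2.31 (SE 0.310, 95% interval 1.61 to 3.02, limma adjusted p = 0.0332), or 4.97-fold on this scale. Among the 14217 genes, 21 had a larger positive change. The adjusted p passed without ES replicate 2 (0.0444) or fPS replicate 1 (0.0444) and was lost without ES replicate 1 (0.132), ES replicate 3 (0.104), fPS replicate 2 (0.179) or fPS replicate 3 (0.0897), with a log2 change between 2.05 and 2.59 in these 6 fits. It was also lost with a pseudocount of 1 (0.137) or 64 (0.0546) in place of 16.

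Cldn7 encodes a claudin that in many epithelia lies along the lateral membrane as well as in the strand. The ES arrays read 325, 508 and 537, and those of fPS cells 1035, 1179 and 1158. The groups did not overlap, and the fPS arrays lay close together while ES replicate 1 was below the other ES arrays. From 457 ± 115 to 1124 ± 77.5 (SD, n = 3 each) the log2 change was 1.30 (SE 0.242, 95% interval 0.75 to 1.85), which did not pass (limma adjusted p = 0.0538). It passed in 5 of 18 alternative settings, among them quantile normalization (log2 change 1.42, adjusted p = 0.0433) and leaving out the dimmest 50% of probe sets (adjusted p = 0.0143). With single arrays left out the change stayed between 1.08 and 1.43, and the adjusted p between 0.0816 and 0.237.

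Cldn6, a claudin of embryonic epithelia, read 377, 228 and 332 in ES cells against 249, 304 and 461 in fPS cells. The groups overlapped, with the lowest of the 6 values on an ES array and the highest on an fPS array. The log2 change was 0.09 (SE 0.288, 95% interval -0.56 to 0.75, limma adjusted p = 0.929). The sign turned without ES replicate 2 (-0.11) or fPS replicate 3 (-0.14).

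Cldn3 encodes a claudin close to Cldn4 that binds the same toxin. Its probe set had low values, at 42.5, 85.5 and 57.1 in ES cells against 28.3, 17.4 and 80.9 in fPS cells. Replicate 3 of fPS lay within the ES range while the other fPS arrays lay below it, so the groups overlapped. The log2 change was -0.53 (SE 0.395, 95% interval -1.43 to 0.37, limma adjusted p = 0.584). Its lowest value was on fPS replicate 2, the array with the highest 3′ to 5′ ratio for β-actin and the lowest for Gapdh. The part of RNA quality in that value was not tested. Single arrays moved the change in both directions: it was -0.21 with fPS replicate 2 left out, -0.32 with ES replicate 2 left out and -0.98 with fPS replicate 3 left out (unadjusted p = 0.0126, adjusted p = 0.234), and -1.003 without replicate 3 of both groups.

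**Figure D1:**
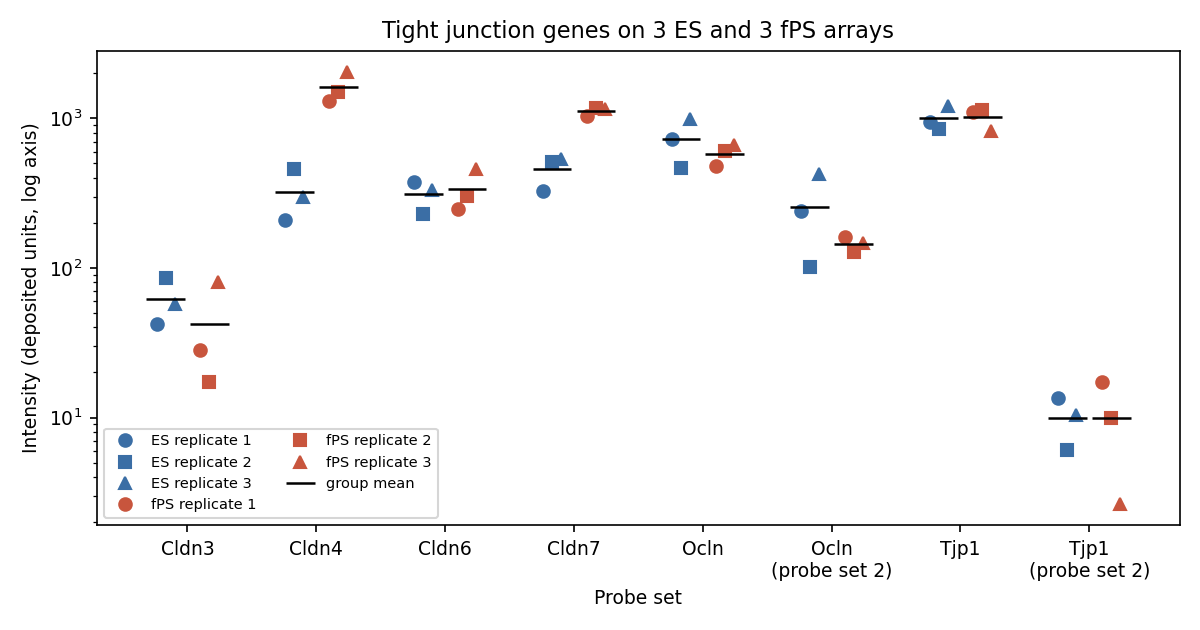
Intensity (log axis) of the 8 probe sets of the tight junction genes on each of 3 ES (blue) and 3 fPS (red) arrays, with marker shape for the replicate and a bar at the group mean; probe set 2 is the dimmer one of its gene. Groups separate for Cldn4 (208 to 459 against 1303 to 2034) and Cldn7 (325 to 537 against 1035 to 1179) and overlap for the other 6 probe sets.

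Occludin (Ocln) helps to organise the strand and the corners where cells meet. Its brighter probe set read 733, 467 and 990 in ES cells against 481, 605 and 662 in fPS cells. All 3 fPS values lay inside the wider ES range. The log2 change was -0.27 (SE 0.294, 95% interval -0.93 to 0.40, limma adjusted p = 0.738). The other probe set of Ocln had 239, 102 and 428 on the ES and 161, 127 and 148 on the fPS arrays, a log2 change of -0.56 (SE 0.423, adjusted p = 0.59). Both probe sets ordered the ES arrays alike, with replicate 3 highest and replicate 2 lowest. Single arrays moved the changes in both directions. Without ES replicate 3, also the ES array of highest collagen signal, they were -0.02 and -0.11, and without ES replicate 2 they were -0.55 and -1.06, the latter with an unadjusted p of 0.00837 and an adjusted p of 0.187.

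ZO-1 (Tjp1) is the scaffold whose PDZ domains bind the tails of claudins. Its values were 944, 855 and 1219 in ES cells against 1102, 1134 and 829 in fPS cells. The group means of 1006 ± 190 and 1022 ± 168 (SD, n = 3 each) lay closer together than the arrays of either group. The log2 change was 0.02 (SE 0.233, 95% interval -0.51 to 0.55, limma adjusted p = 0.98), with a sign that turned when arrays were centred on their medians (-0.04). A further Tjp1 probe set was dim on all 6 arrays, from 2.65 to 17.2, below every array's median, with a log2 change of -0.03.

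Counted by separation of the arrays, 2 of the 6 genes had groups that did not overlap, both with fPS higher, where 22.6% of all named genes did not overlap and 11.2% had fPS higher. At an unadjusted limma p under 0.05 there were the same 2 genes, beside 17.5% of all named genes.

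To compare the change of Cldn4 with that of the other members, the difference of log2 values between Cldn4 and each of them was taken on the same array, which removes the scaling of the array. The level of such a difference has no meaning of its own between probe sets, and its change between groups is what was tested. Relative to Cldn7 the values of Cldn4 were -0.61, -0.14 and -0.81 in ES cells against 0.33, 0.35 and 0.80 in fPS cells. All fPS values thus lay above all ES values, and Cldn4 changed by 1.02 more than Cldn7 on the log2 scale. Relative to Cldn3, Cldn6, Ocln and Tjp1 the excess of Cldn4 was 2.85, 2.22, 2.58 and 2.29. Cldn4 was made the reference because its change was the largest, so a positive excess over each other member follows from that choice and is a description. The planned exact two-sided permutation tests gave p = 0.1 in each of the 5 pairs, also after adjustment; this is the smallest p that 3 against 3 arrays allow, so no pair could pass. For Cldn3 the excess also rests on a probe set of low values whose signal over background could not be judged.

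**Figure D2:**
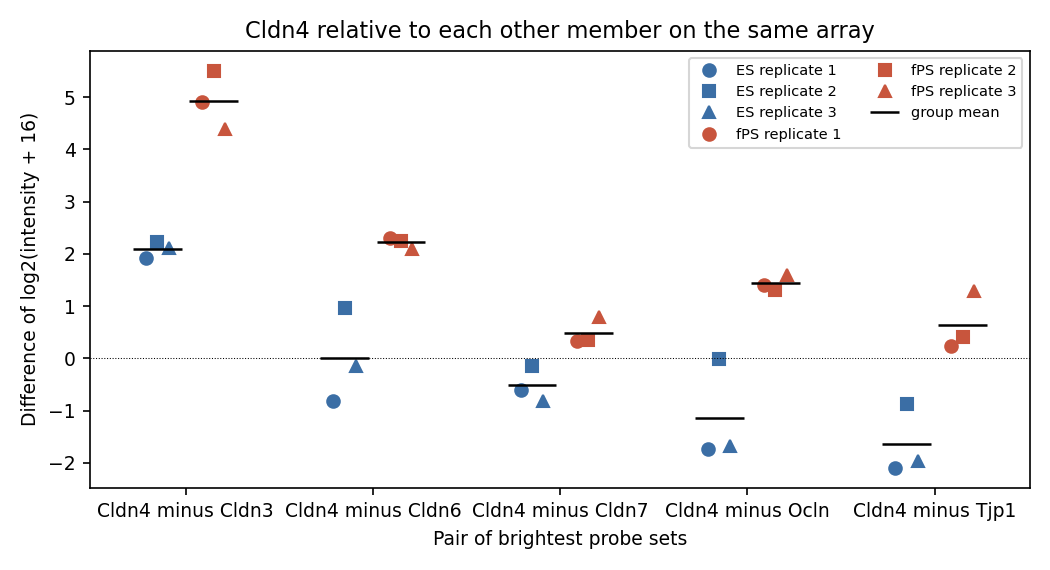
Difference of log2(intensity + 16) between Cldn4 and each other tight junction gene on the same array, for ES (blue) and fPS (red) arrays, with bars at group means. In all 5 pairs the fPS arrays lie above the ES arrays, by 1.02 for Cldn7 up to 2.85 for Cldn3.

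Cldn4 and Cldn3 are neighbours in the rat genome, as duplicated claudin genes often are. RefSeq's table for assembly GRCr8 lists only the pseudogenes Rps13-ps6 and Arpc5l-ps3 between them. The 3 nearest genes with a probe set were read on each side of Cldn3 and Cldn4, of Cldn6 and of Cldn7. None of these 18 genes passed the limma test (18 neighbours, lowest adjusted p = 0.055). Around Cldn3 and Cldn4, the antisense RNA Abhd11-as1 had 21.9, 50.9 and 11.4 on ES and 51.7, 117 and 96.8 on fPS arrays (log2 change 1.29, SE 0.374, adjusted p = 0.151), and Tmem270 had 36.3, 21.3 and 22.1 against 65.1, 68.7 and 47.5 (0.85, SE 0.232, adjusted p = 0.131). Abhd11, Stx1a, Eln and Limk1 there had log2 changes between -0.48 and 0.25. The groups did not overlap for Abhd11-as1 and Tmem270 and overlapped for the other 4 genes.

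Beside Cldn6, Tnfrsf12a, a receptor of the TNF family, had 150, 111 and 127 on ES and 261, 378 and 480 on fPS arrays (log2 change 1.39, SE 0.261, adjusted p = 0.055), while Hcfc1r1, Thoc6, Pkmyt1, Paqr4 and Flywch1 lay between -0.26 and 0.14. Beside Cldn7, the glucose transporter Slc2a4 had 2.41, 23.6 and 25.7 on ES and 57.9, 70.2 and 136 on fPS arrays (log2 change 1.67, SE 0.384, adjusted p = 0.0897). A further probe set of Slc2a4 had a log2 change of -0.17, so its probe sets disagree. The other neighbours of Cldn7, namely Ybx2, Eif5a, Elp5, Ctdnep1 and Gabarap, had changes between -0.36 and 0.23.

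**Figure D3:**
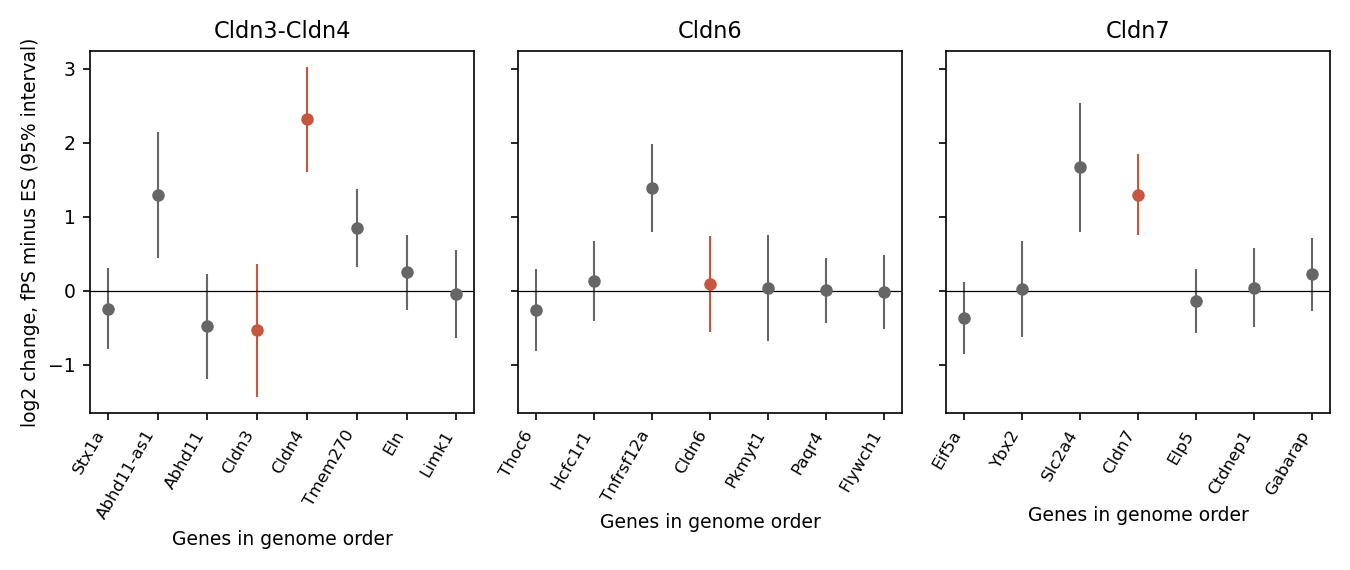
Log2 change (fPS minus ES, 95% interval from limma) of the claudin genes (red) and of the 3 nearest measured genes on each side (grey), in genome order. Cldn4 at 2.31 stands beside Cldn3 at -0.53, and Slc2a4 at 1.67 beside Cldn7 at 1.30.

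The sequence before the start of each gene was searched for the E-box letters CAGGTG on both strands (CACCTG on the other strand), since the repressors of the Snail and ZEB families are known to bind this E-box in genes of epithelial junctions. RefSeq promoters of GRCr8 were found for 5 of the 6 members, without Cldn4, and the 250 bases before the listed start were used. The window of Cldn7 held 4 such E-boxes, that of Cldn6 3, that of Ocln 2, that of Cldn3 1 and that of Tjp1 0. The Tjp1 window, with 30.4% G and C, lies before a start inside the gene's RefSeq span, so this 0 describes an internal start. Of 33469 promoter windows of the same length, 15.9% held at least 1, 1.84% at least 2, 0.236% at least 3 and 0.0299% at least 4. The member windows other than that of Tjp1 were rich in G and C, at 59.2% to 66.4% against a median of 51.2% over all windows. The windows are chr10:55188420-55188669 (plus strand) for Cldn7, chr10:13215558-13215807 (plus strand) for Cldn6, which lies inside the gene's RefSeq span, chr2:33441199-33441448 (minus strand) for Ocln, which also lies inside the gene's span, and chr12:27346548-27346797 (minus strand) for Cldn3. They are printed 5′ to 3′ on the strand of the gene, with the E-boxes in capitals, to set the window of Cldn7, whose fPS arrays all lay above its ES arrays, beside those of members whose groups overlapped.
Cldn7: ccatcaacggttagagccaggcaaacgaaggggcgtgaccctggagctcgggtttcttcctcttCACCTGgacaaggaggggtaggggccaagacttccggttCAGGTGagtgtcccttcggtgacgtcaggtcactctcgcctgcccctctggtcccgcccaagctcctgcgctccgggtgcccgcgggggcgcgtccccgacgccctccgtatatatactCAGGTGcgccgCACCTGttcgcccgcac
Cldn6: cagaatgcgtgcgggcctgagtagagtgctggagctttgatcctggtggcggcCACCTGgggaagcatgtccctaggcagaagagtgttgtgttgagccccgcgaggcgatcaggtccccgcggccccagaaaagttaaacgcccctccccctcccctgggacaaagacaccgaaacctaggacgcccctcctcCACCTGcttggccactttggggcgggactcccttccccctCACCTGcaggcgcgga
Ocln: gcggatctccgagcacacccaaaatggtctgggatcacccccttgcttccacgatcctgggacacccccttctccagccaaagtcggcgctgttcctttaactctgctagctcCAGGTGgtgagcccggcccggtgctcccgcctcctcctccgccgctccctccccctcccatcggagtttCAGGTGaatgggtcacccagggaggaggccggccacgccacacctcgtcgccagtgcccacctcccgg
Cldn3: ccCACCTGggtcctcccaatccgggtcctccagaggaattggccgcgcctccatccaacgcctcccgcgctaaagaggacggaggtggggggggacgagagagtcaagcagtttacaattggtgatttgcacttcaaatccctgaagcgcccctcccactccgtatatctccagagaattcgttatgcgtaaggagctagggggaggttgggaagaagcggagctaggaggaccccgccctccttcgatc
In the Cldn7 window the first bases of the E-boxes lie 186, 147, 28 and 17 bases before the start. In the Cldn6 window they lie 197, 56 and 16 bases before it. Cldn7 and Cldn6, whose windows hold the most E-boxes, thus had log2 changes of 1.30 and 0.09. The GC box GGGCGG, the letters bound by Sp1, searched on both strands, was found 1 time each in the windows of Cldn3, Cldn6 and Cldn7 and in 30.5% of all windows. A match of letters is not a binding site.

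The repressors themselves, named outside the rule for naming genes, were measured in part. Snai1 had 21.6 ± 6.78 in ES and 39.0 ± 10.6 in fPS cells, Zeb1 122 ± 41.6 and 125 ± 38.8, and Zeb2 23.4 ± 9.82 and 18.6 ± 8.56 (SD, n = 3 each). The log2 changes were 0.55, 0.04 and -0.19 (limma adjusted p = 0.333, 0.975 and 0.815), so none passed. The groups did not overlap for Snai1, with fPS higher, as in 11.2% of all named genes. Further probe sets of Zeb2 had log2 changes between -0.42 and 0.27, so they disagree in sign.

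Further claudins were read from a list of 20, of which 12 were measured. None passed the limma test in either direction, and 2 had an unadjusted p under 0.05, where 17.5% of all named genes had such a p. Their median log2 change was 0.05. The claudin with the largest difference was Cldn5, best known from endothelium and the blood-brain barrier. Its values were 990, 935 and 1279 in ES cells against 423, 176 and 111 in fPS cells. All fPS arrays lay below all ES arrays, in the opposite direction to Cldn4 and Cldn7. From 1068 ± 185 to 236.7 ± 164 (SD, n = 3 each) the log2 change was -2.28 (SE 0.413, 95% interval -3.22 to -1.35), just short of the threshold (limma adjusted p = 0.0507). It passed in 8 of 18 alternative settings, among them quantile normalization and centred arrays. Cldn12, a claudin of broad expression, had 199 ± 24.2 and 289 ± 42.6, a log2 change of 0.50 (adjusted p = 0.298), and Cldn11, the claudin of myelin and Sertoli cells, 43.6 ± 8.46 and 29.3 ± 12.7, a change of -0.43 (adjusted p = 0.498). A dimmer probe set of Cldn11 had a log2 change of 0.03. The other 9 measured claudins had group means of at most 35.1.

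Other membrane proteins of the junction showed no call. Of 12 measured of 14 listed, 0 passed the limma test and 1 had an unadjusted p under 0.05, beside 17.5% of all named genes. The median log2 change was 0.10. JAM-A (F11r), an adhesion molecule of the immunoglobulin family, had 411 ± 155 in ES and 374 ± 17.1 in fPS cells. The related Jam2 had 610 ± 403 and 637 ± 141, and its 4 other probe sets had the opposite sign, with log2 changes between -1.24 and -0.20. The polarity protein Crb3 had 267 ± 98.5 and 282 ± 55.7.

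Among the proteins of the cytoplasmic plaque, 1 of 18 measured genes rose, 0 fell and 17 did not pass, and the median log2 change was 0.12. The gene that rose was Amot, angiomotin, which joins junctional polarity proteins to the Hippo pathway. Its values were 255, 227 and 280 in ES cells against 608, 928 and 755 in fPS cells, with no overlap and a log2 change of 1.51 (SE 0.227, limma adjusted p = 0.0367). A further Amot probe set had a log2 change of 1.14 (adjusted p = 0.055). The call was kept without fPS replicate 1 (0.0444) and lost without each other single array (0.0963 to 0.188), with pseudocounts of 1 (0.15) and 64 (0.0516), with the replicate number as a block (0.061, which left 0 plaque genes past the threshold) and with the collagen covariate (0.0512). Its relative Amotl2 had 491, 637 and 1136 against 1547, 2435 and 1846, which missed the threshold (log2 change 1.41, adjusted p = 0.0913), and Ybx3, a transcription factor held at the junction by ZO-1, had 1289 ± 419 and 1116 ± 188.

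A pair of plaque genes outside the naming rule were chosen after their values were seen. Cingulin (Cgn), a coiled-coil protein bound to ZO-1, had 25.3, 35.7 and 28.3 on ES and 61.0, 72.7 and 76.3 on fPS arrays, a log2 change of 0.91 (SE 0.204, limma adjusted p = 0.0839). Micall2, which helps to carry occludin to the junction, had 46.1, 55.7 and 29.8 against 92.4, 101 and 135, a log2 change of 1.08 (SE 0.247, adjusted p = 0.088). In both the groups did not overlap. Both passed when the dimmest 50% of probe sets were left out, and Micall2 also without the dimmest 30%.

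The polarity complexes, apical and basolateral, showed no call either. Of 14 genes measured, 0 passed the limma test and 2 had an unadjusted p under 0.05, beside 17.5% of all named genes. The median log2 change was -0.03. The small GTPase Cdc42 had 3237 ± 16.7 in ES and 3056 ± 129 in fPS cells, atypical protein kinase C iota (Prkci) 1629 ± 648 and 1643 ± 200, and the scaffold Dlg1 1102 ± 299 and 1024 ± 154. The dimmest Cdc42 probe set had 140, 196 and 185 on ES and 357, 311 and 350 on fPS arrays (log2 change 0.91, adjusted p = 0.0903). A further Cdc42 probe set had a log2 change of -0.18, so the probe sets of this gene disagree. The dimmer probe sets of Prkci, at 0.65 (limma adjusted p = 0.21) and -0.17 (adjusted p = 0.918), also differ in sign.

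Among transcription factors and other regulators of epithelial junctions, 0 of 17 measured genes rose, 1 fell and 16 did not pass. The median log2 change was -0.19. This list holds the repressors Snai1, Zeb1 and Zeb2 beside other regulators, so its median has no single direction for junctions. The gene that fell was Tfap2a, a factor of surface ectoderm, which had 220, 188 and 113 on the ES and 40.8, 7.81 and 22.8 on the fPS arrays, a log2 change of -2.30 (SE 0.356, limma adjusted p = 0.0388). The call was kept without fPS replicate 1 (adjusted p = 0.0402) and lost without each other single array (0.097 to 0.179), with pseudocounts of 1 (0.159) and 64 (0.0607) and with the collagen covariate (0.0512). Its relative Tfap2c had 1442 ± 269 and 1894 ± 446, and Klf5 had 2454 ± 333 and 3056 ± 39.9, and neither passed.

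**Figure D4:**
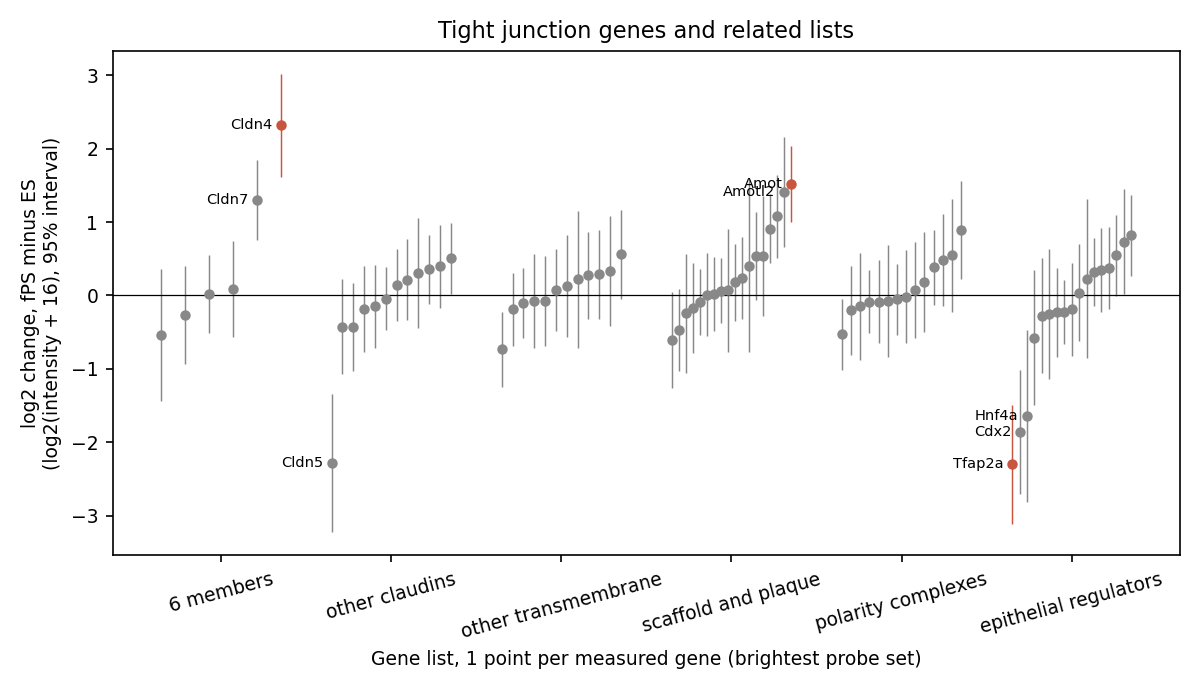
Log2 change (fPS minus ES, bars are 95% intervals from limma) of the 6 tight junction genes and of the measured genes of 5 related lists, sorted within each list; red points passed at an adjusted p under 0.05. Cldn4, Amot and Tfap2a passed, at 2.31, 1.51 and -2.30, while Cldn7 at 1.30 and Cldn5 at -2.28 missed the threshold narrowly.

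Other cell types that express tight junction genes were read from marker lists. The epithelial adhesion genes Epcam and Cdh1 had 3511 ± 542 and 2664 ± 1530 in ES and 3548 ± 101 and 2871 ± 193 in fPS cells, and neither passed, at log2 changes of 0.03 and 0.25. Of 15 trophectoderm markers 0 rose, 1 fell (Tfap2a) and 14 did not pass, and their summed intensity ran from 5138 to 7158 on ES and from 3893 to 7135 on fPS arrays. Their median log2 change was -0.28, with a positive sign in 6 of 15. Some of these markers had clear levels in both groups. Tfap2c had 1442 and 1894 on average, Krt18 1307 and 1763, Krt8 280.5 and 391.5 and Eomes 760 and 550.5 in ES and fPS cells. Krt19 had 1527 and 630.5 (log2 change -1.885, limma adjusted p = 0.288). Cdx2 had 970, 377 and 706 on ES and 244, 144 and 124 on fPS arrays (limma adjusted p = 0.0607). Elf5 and Krt7 had group means of at most 10.5, and Gata2, Gata3, Hand1, Ascl2 and Plet1 of at most 29.6. Of 16 primitive endoderm markers 0 passed by their brightest probe set, and 11 had an unadjusted p under 0.05, 10 of them higher and 1 (Hnf4a) lower in fPS cells, where 17.5% of all named genes had such a p. Their median log2 change was 0.86. A further probe set of Col4a1, a basement membrane collagen, had 31.7, 17.2 and 54.5 on ES and 152, 138 and 222 on fPS arrays and passed (log2 change 1.93, adjusted p = 0.0398), while its brightest probe set did not (1.91, adjusted p = 0.0875). The summed intensity of the primitive endoderm markers ran from 1617 to 3360 on ES and from 3119 to 4307 on fPS arrays. The brightest of these markers were Lama1, Lamb1 and Sparc, and none passed. Lama1 had means of 950 in ES and 673 in fPS cells (log2 change -0.48, limma adjusted p = 0.435). Lamb1 had 521 and 930 (0.86, adjusted p = 0.289), and Sparc 350 and 828 (1.46, adjusted p = 0.22). Sox17 had 52.0, 63.8 and 110 against 270, 214 and 192 (log2 change 1.44, adjusted p = 0.0552), while its dimmer probe sets had 0.47 and -0.61. Hnf4a had 148, 24.1 and 19.8 against 1.98, 5.78 and 3.96 (log2 change -1.64), while its dimmer probe sets had 0.38 and 0.20. The probe sets of each of these genes thus disagree in sign. Of 14 genes of simple epithelium, a list that includes members, 1 rose (Cldn4), 0 fell and 13 did not pass. Of 23 fibroblast markers 0 passed, with sums from 2937 to 4731 on ES and from 4147 to 5137 on fPS arrays. Their median log2 change was 0.30, with a positive sign in 16 of 23. Among them 5 had an unadjusted limma p under 0.05, in both directions, where 17.5% of all named genes had such a p. The part of these cell types in the levels of Cldn4 and Cldn7 was not tested. With the collagen level as a covariate the log2 change of Cldn4 was 2.26 (adjusted p = 0.0485) and that of Cldn7 1.25 (adjusted p = 0.0615).

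For each member the 3 genes with the most similar profile were sought among 6842 named genes with a mean intensity of at least 100. Likeness was the root mean square difference between log2 values over the 6 arrays, each gene centred on its own mean. Nearest to Cldn4 were Reep5, a protein that shapes the endoplasmic reticulum, with a difference of 0.212, the fatty acid binding protein Fabp3 with 0.229 and the adhesion receptor Icam1 with 0.274. Fabp3 had 818, 1121 and 750 on ES and 3266, 4240 and 4901 on fPS arrays and shared with Cldn4 the highest ES value on replicate 2 and the highest fPS value on replicate 3. Nearest to Cldn7 were the noncoding RNA Pvt1 (0.0777), Fam43a (0.108) and Fnip2 (0.121), a regulator of the kinase mTORC1. Pvt1 had 243, 416 and 398 on ES and 705, 885 and 853 on fPS arrays, again with the lowest ES and the lowest fPS value on replicate 1. Nearest to Cldn6 were Apeg3 (0.108), Atp6v0d1 (0.138) and Inpp5a (0.138), and nearest to Cldn3 were Smim14 (0.236), Coa8 (0.257) and Nubpl (0.260). For Ocln they were Matr3 (0.0958), Aacs (0.110) and Lgalsl (0.115), and for Tjp1 Efcab7 (0.0415), Spast (0.0467) and Fam91a1 (0.0473). These are descriptions over 6 arrays from many candidates, and the arrays share the difference between the groups.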

How the data were processed

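Gene expression was measured on Affymetrix arrays in 3 ES and 3 fPS samples. The authors deposited linear intensities, 1 per probe set and array; per the labels' protocols the RNA was labelled with biotin, while how probe signals were summarised and scaled is not given in the sources used here. There were 31099 probe sets, 57 of them controls that were left out, with no detection calls and 0 unused columns. Symbols came from the platform annotation (20826 probe sets with 1 symbol, 436 with several and left unnamed, 9780 with none). Gene identifiers of 14161 of 14217 genes matched RefSeq's GRCr8 table, used for position and neighbours.

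Values were taken as log2(intensity + 16) without further scaling or filter and fitted with limma 3.58.1 in R 4.3.3 (lmFit, eBayes, Benjamini-Hochberg over 31042 probe sets, threshold 0.05, tested on simulated data). Figures used matplotlib 3.10.9. Members and lists were chosen with earlier results of these data known. Besides all members, up to 3 genes per list were named: first those that passed, by size of change, then the brightest. For the fibroblast and collagen lists no such genes were named. Cgn, Micall2, Snai1, Zeb1, Zeb2, Cdx2, Elf5, Krt7, Krt8, Krt19, Eomes, Gata2, Gata3, Hand1, Ascl2, Plet1, Hnf4a, Col4a1 and Sox17 are outside this rule. They were chosen after their values were seen. A planned comparison of protein sequences was not run. Alternatives changed scaling, pseudocount, filters, variance moderation, arrays used, the replicate block, a collagen covariate and the probe set standing for a gene. The number of arrays limits the precision.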

Additional observations from a re-analysis of the deposited data

How the results depend on the processing

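Cldn4 kept its direction in all 18 alternatives, with log2 changes from 2.05 to 2.59 and unadjusted limma p up to 0.00253, and passed in 11 of them. The call was lost with pseudocounts of 1 (2.37) and 64 (2.15), without replicate 3 of both groups (2.12, adjusted p = 0.181) and in 4 of 6 fits without a single array (range 2.05 to 2.59). Cldn7 passed after quantile normalization (1.42), without the dimmest 30% or 50% of probe sets, with the trend and robust settings and with the mean over probe sets (1.30 in each). Single arrays left out gave 1.08 to 1.43. Cldn3 (-1.003 to -0.21), Ocln (-0.55 to -0.02) and its other probe set (-1.06 to -0.11) kept their sign and did not pass in any alternative run. The sign of Cldn6 turned without replicate 3 of both groups (-0.089) and in the range without single arrays (-0.14 to 0.28). That of Tjp1 turned with centred arrays (-0.036), with the mean over its probe sets (-0.0040) and without single arrays (-0.083 to 0.17), and that of its dim probe set with the collagen covariate (0.0033), without replicate 3 of both groups (0.20) and without single arrays (-0.23 to 0.19). None of these turned values passed.

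The count of members past the threshold was 2 (Cldn4 and Cldn7) after quantile normalization, without the dimmest 30% or 50%, with trend and robust and with the mean over probe sets, 0 with pseudocounts of 1 and 64 and without replicate 3 of both groups, and 0 to 1 without single arrays. Of the 12 other claudins 1, Cldn5, passed with quantile normalization, centred arrays, without the dimmest 30% or 50%, with trend and robust, the mean over probe sets and without unspecific probe sets, and 0 to 1 without single arrays. Plaque genes numbered 3 and 4 without the dimmest 30% and 50%, 2 with trend and robust, 0 with either pseudocount, the replicate block, the collagen covariate and without replicate 3 of both groups, and 0 to 1 without single arrays. Epithelial regulators numbered 2 (Tfap2a and Cdx2) with centred arrays, without the dimmest 30% or 50% and with trend and robust, 0 with either pseudocount, the collagen covariate and without replicate 3 of both groups, and 0 to 1 without single arrays. The other transmembrane and polarity lists had 0 throughout.

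Among all probe sets, 215 passed (124 higher), and 339 (174 higher) after quantile normalization, 376 (152 higher) with centred arrays, 748 and 934 without the dimmest 30% and 50%, 0 and 41 with pseudocounts of 1 and 64 (3943 at an unadjusted p under 0.05 for the former), 619 with trend and robust, 100 with the collagen covariate, 0 without replicate 3 of both groups (4618 at an unadjusted p under 0.05) and 0 to 162 without single arrays. The replicate block gave 107. Deviations of same-numbered arrays correlated at 0.151, 0.02 and 0.0748 over all probe sets, and at 0.262, 0.109 and 0.154 over the brighter 50%, a version computed first and with the calls under the block in view. Over the brighter 50% every same-numbered pair exceeded 0.1 and every array correlated best with its own number; over all probe sets neither held. Whether the numbers pair the samples is therefore unsettled. With the block Cldn4 kept its call (adjusted p = 0.0426) and Amot lost it. The cause of these shifts was not tested, beyond the smaller number of probe sets or arrays in some settings. Signal over background could not be judged without detection calls, which limits Cldn3 and the dim Tjp1 probe set most.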
